A study of Mus musculus with 45 samples.

Results

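The clustered protocadherins are 3 neighbouring gene families, alpha, beta and gamma, and were described here in male mouse embryonic stem cells (ESCs) that leave naive pluripotency. Members were chosen by symbol alone, as every gene of the deposited tables whose symbol begins with Pcdha, Pcdhb or Pcdhg followed by a digit or by a, b or c. The rule found 58 of 35372 genes, of which 15 are listed under alpha, 22 under beta and 21 under gamma. One of the 15 alpha entries (ENSMUSG00000103458, a second entry under the symbol Pcdha4) is Gm42416, a read-through gene model that runs into the gamma cluster, and it is kept apart from the other 14 alpha genes throughout. The gene listed as Pcdha11 (ENSMUSG00000007440) is named Pcdha10 by RefSeq, and a second gene listed as Pcdhga8 (ENSMUSG00000023036) is Pcdhgc4 and is called by that name here. All 58 lie on chromosome 18 of GRCm38, alpha between positions 36930184 and 37187661, beta between 37264938 and 37524479, and gamma between 37661793 and 37841873.

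Clustered protocadherins are homophilic cell adhesion proteins, best known from neurons, where each cell expresses its own combination of isoforms and uses it to tell its own branches from those of other cells. In the alpha and gamma clusters, each variable exon has its own promoter and codes for the extracellular part, the transmembrane segment and the start of the cytoplasmic tail, and is spliced to constant exons shared by the whole cluster, which code for the rest of the tail. Beta genes have a single coding exon each and no constant exons. Promoter choice depends on CTCF, cohesin and DNA methylation. The last genes of the alpha and gamma clusters, the C-type genes Pcdhac1, Pcdhac2, Pcdhgc3, Pcdhgc4 and Pcdhgc5, are regulated differently from the A-type and B-type genes.

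The data are strand-specific RNA-seq of 45 libraries of E14tg2a, a single wild-type ESC line of 129/Ola background, taken before and during differentiation. Starting ESCs were kept either in 2iL (serum-free N2B27 medium with the inhibitors CHIR99021 and PD0325901 plus LIF) or in SL (serum plus LIF), and all were then moved into 1 of 3 courses: EB (suspension aggregates in serum without LIF), EpiSC (N2B27 with Fgf2 and Activin A) or Neural (N2B27 alone). Libraries were made at days 0, 1, 1.5, 2, 2.5, 3, 5 and 7, with 1 library per medium, course and day, except that a single SL library at day 0 serves all 3 courses and that day 5 of EpiSC from 2iL was not analysed here. No library is a repeat culture of another, so the courses of a day, or the media and days of a course, stand in as replicates, and p-values measure the spread between these libraries.

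The libraries held 13093226 to 39804240 counted reads (median 18222720), so that 3 counts were worth 0.0754 to 0.229 CPM (counts scaled to the library total). The 8 libraries of the EB course from 2iL were deeper, at 31055159 to 39804240, than most of the other 37 libraries (13093226 to 37071102). The 58 members together took 0.0303 to 0.227% of the counts. Of the markers fixed for the labelled states, those of naive pluripotency followed the labels. Their sums were 3934 to 4187 CPM in 2iL and 2249 CPM in SL at day 0. At days 5 and 7 they were 39.5 to 301 CPM. The neural lists did so only in part. Neuron markers summed to 108 to 159 CPM in 2iL and 160 CPM in SL at day 0. In Neural they were at 88.0 to 131 CPM at days 2.5 and 3 and at 342 to 561 CPM at day 7. Neural progenitor markers at day 7 overlapped between Neural (271 to 394 CPM) and EpiSC (280 to 426 CPM). Summed endoderm markers differed between the media at day 0, at 2.40 to 4.61 CPM in 2iL against 342 CPM in SL, and at days 5 and 7 they were highest in Neural (927 to 2129 CPM, against 95.2 to 643 in EB and 64.4 to 240 in EpiSC), although endoderm is not what that course is named for. In bulk libraries, fewer cells of a type and less RNA per cell cannot be told apart.

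How reads on the constant exons were counted is not given in the sources used here, but 5 alpha genes had one and the same count in each of the 45 libraries, as did 9 gamma genes, and no gene of their cluster had a lower one. The counts were therefore read as if each constant-exon read had been counted for every gene of its cluster, and the shared and own values below rest on that reading. In each library the lowest count among the alpha genes, and likewise among the gamma genes, was taken as the count of the shared exons (2860 bases in alpha, 2116 in gamma), and what a gene had above it as its own reads. Shared counts were 232 to 3669 per library in gamma (median 796) but 0 to 193 in alpha (median 17). The 5 alpha and 9 gamma genes that set the shared count show no own read. They are Pcdha3, Pcdha5, Pcdha6, Pcdha7 and Pcdha8, and Pcdhga1, Pcdhga2, Pcdhga4, Pcdhga5, Pcdhga6, Pcdhga7, Pcdhgb1, Pcdhgb2 and Pcdhgb5, and why they have none was not tested. On this reading, a deposited alpha or gamma count is mostly a measure of its whole cluster, and the 14 alpha or 21 gamma genes move together by construction. Tests are given for the deposited counts, and then for shared and own reads counted apart, a way of counting chosen after seeing the data.

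Gamma was the cluster with by far the most RNA before differentiation. Its shared exons were at 53.2, 44.5 and 46.4 CPM in the 3 libraries of 2iL ESCs (48.0 ± 4.59, SD, n = 3), while the shared exons of alpha were at 0.149, 0 and 0.0467 CPM and the 22 beta genes summed to 0.803, 0.466 and 0.280 CPM. In the single SL library at day 0, the shared gamma exons were at 32.9 CPM (95% Wilson interval 30.4 to 35.7, for counting error only), the shared alpha exons at 0.165 CPM (3 counts, interval 0.0560 to 0.484) and beta at 0.878 CPM (16 counts, interval 0.540 to 1.43). ESCs of both media therefore carried gamma transcripts and were close to the detection limit for alpha and beta.

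**Figure D1:**
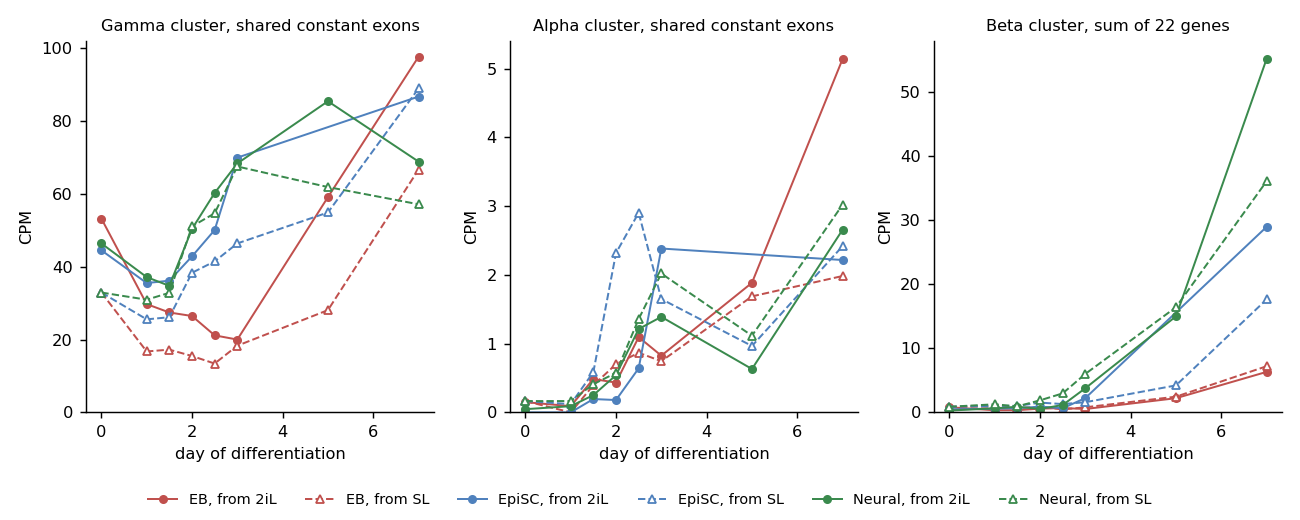
Levels in CPM against day for the shared gamma exons, the shared alpha exons and the sum of the 22 beta genes, with 1 point per library, coloured by course and drawn separately for cells from 2iL and from SL. Gamma in EB dips to between 13.4 and 29.7 CPM over days 1 to 3 and then climbs, while the beta sums are highest in Neural at day 7 (55.1 CPM from 2iL, 36.0 CPM from SL).

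Within gamma, the C-type gene Pcdhgc3 (ENSMUSG00000102918) led at day 0. Its own reads were at 17.4, 14.04 and 16.6 CPM in 2iL (16.0 ± 1.75, SD, n = 3) and 9.05 CPM in SL, and made up 43.1 ± 3.14% of the own gamma reads in 2iL. Per kilobase of its own exon, Pcdhgc3 stood at 4.73 CPM in 2iL ESCs, and the next genes were the A-type members Pcdhga10 (1.58), Pcdhga3 (1.47), Pcdhga8 (1.34) and Pcdhga11 (1.18). The other C-type genes were low, with Pcdhgc4 at 0.743, 0.732 and 0.373 CPM and Pcdhgc5 at 1.07, 0.532 and 0.607 CPM in the same libraries. Own reads per kilobase, summed over gamma, came to 53.1 ± 2.00% of the shared reads per kilobase in 2iL at day 0 (n = 3). That share was 24.0 to 53.9% over days 1 to 2 (median 37.4%, 18 libraries) and 65.4 to 71.6% at day 7 (68.8 ± 2.23%, n = 6), so a part of the shared reads was not matched by reads on any listed variable exon, and what they come from was not tested.

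**Figure D2:**
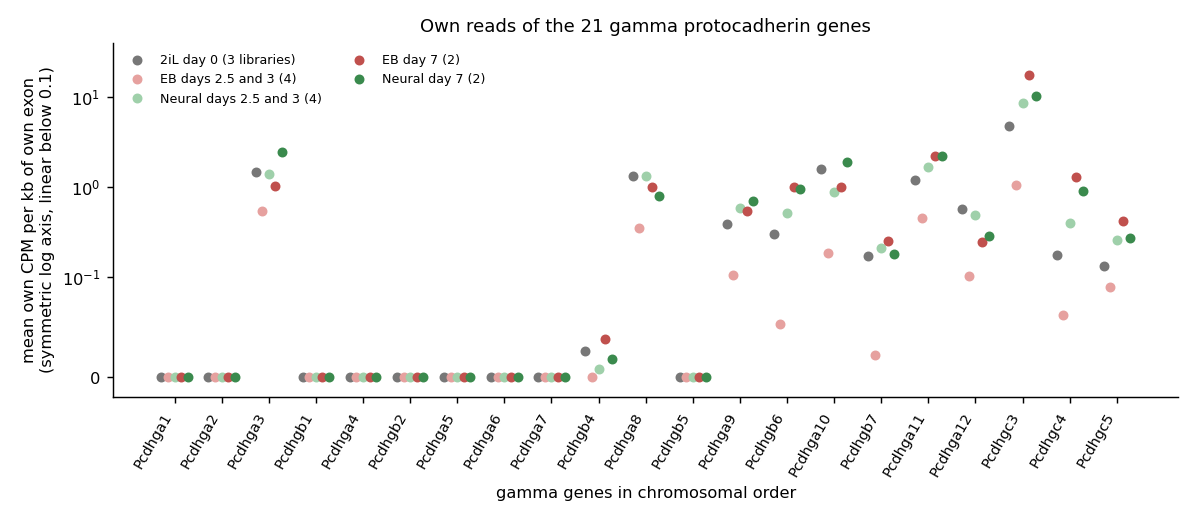
Own reads of each of the 21 gamma genes, in CPM per kilobase of own exon on a symmetric log axis, by group of libraries. Pcdhgc3 is the highest gene at day 0 in 2iL (4.73) and at day 7 in EB (17.6) and Neural (10.3), and 9 genes sit at 0. It was also the highest in EpiSC at day 7 (17.7), a group that is not drawn.

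On leaving 2iL, own reads of 3 of the 11 gamma genes tested were called lower at day 1. At days 1.5 and 2, 7 of the 11 were called lower. None of the 11 had a positive difference at either time. Over all 24 features tested, the shares called lower were near those over all genes (14% and 23.1%). The shared gamma exons were at 29.7, 35.5 and 37.2 CPM at day 1 in EB, EpiSC and Neural, each below its own library at day 0, but neither day 1 (log2 difference -0.55, SE 0.35, adjusted p = 0.25, edgeR's quasi-likelihood test) nor days 1.5 and 2 (-0.44, SE 0.30, adjusted p = 0.24) passed the threshold of 0.05. At day 1, no member of 46 tested passed as higher or lower in the deposited counts with edgeR (0 at an unadjusted p under 0.05 as higher and 2 as lower, and DESeq2 called 0 and 1), against 14.6% of all genes tested called higher and 14% called lower. With own reads counted apart, 3 gamma genes fell at day 1 of 24 features tested, against 14% of all genes: Pcdhga3 by 1.66 on the log2 scale (SE 0.29, adjusted p = 0.00052), Pcdhga12 by 1.49 (SE 0.46) and Pcdhga10 by 1.37 (SE 0.50). At days 1.5 and 2, 7 gamma genes of 24 features tested were lower than at day 0, against 23.1% of all genes in that count. Pcdhga10 fell by 1.94 (SE 0.42, adjusted p = 0.0012), Pcdhgb7 by 1.84 (SE 0.73), Pcdhgc3 by 1.49 (SE 0.46, adjusted p = 0.014) and Pcdhga3 by 1.06 (SE 0.24), and Pcdhga8, Pcdhga9 and Pcdhga12 were the others. None of these falls was called in the deposited counts, where shared reads are added to each gene (23% of all genes were called lower there).

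Gamma levels then differed between the courses. Over days 1 to 2, the shared gamma exons were at 15.5 to 29.7 CPM in the 6 EB libraries (median 21.9), at 25.6 to 42.8 CPM in EpiSC (median 35.8) and at 31.0 to 51.1 CPM in Neural (median 36.0). Every Neural library was thus above every EB library. The comparison of Neural with EB over days 1 to 2 and over days 2.5 and 3 was added after seeing the data. In the deposited counts, 23 of 51 members tested were higher in Neural over days 1 to 2, against 14.9% of all genes, and none was lower (edgeR, 0 also at an unadjusted p under 0.05 and 0 with DESeq2), against 17.7% of all genes. The 23 are the 21 gamma genes, Gm42416 and the beta gene Pcdhb22.

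Counted apart, the shared gamma exons were 0.93 higher in Neural on the log2 scale (SE 0.16, adjusted p = 4.7e-05), and 10 of the 11 gamma genes tested on their own reads were higher too, the exception being Pcdhgc5 (0.57, SE 0.33, adjusted p = 0.19). Of all 29 members tested in that count 12 were higher, against 14.9% of all genes. The largest of these differences were in the A-type genes Pcdhga10 (2.14, SE 0.21, adjusted p = 9e-09), Pcdhga9 (1.99, SE 0.22) and Pcdhga12 (1.97, SE 0.29). Pcdhgc3 differed by 0.996 (SE 0.29, adjusted p = 0.0095), but not in the libraries from either medium alone.

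At days 2.5 and 3 the fitted differences were larger. The shared gamma exons stood at 21.2, 19.999, 13.4 and 18.3 CPM in EB (2iL day 2.5, 2iL day 3, SL day 2.5, SL day 3) and at 60.3, 68.4, 54.7 and 67.5 CPM in Neural in the same order. Own reads of Pcdhgc3 were at 4.12, 4.09, 2.49 and 3.62 CPM in EB and at 19.2, 38.0, 22.2 and 37.2 CPM in Neural. Neither measure overlapped between the courses. Neural was higher by 1.90 on the log2 scale for the shared exons (SE 0.20, adjusted p = 3.6e-08) and by 3.06 for Pcdhgc3 (SE 0.36, adjusted p = 2.6e-07). In the deposited counts 31 of 51 members were higher, against 20.7% of all genes: all 21 gamma genes, 8 of 15 beta genes, Pcdhac2 and Gm42416. None was lower, against 20.1% of all genes (0 also at an unadjusted p under 0.05, and 0 with DESeq2). Counted apart, 21 of 29 were higher, against 20.7% of all genes, among them all 11 gamma genes tested, with Pcdhgb7 at 3.29 (SE 0.57), Pcdhgb6 at 3.24 (SE 0.52), Pcdhgc4 at 2.70 (SE 0.39) and Pcdhgc5 at 1.65 (SE 0.39). The beta genes Pcdhb22 (3.83, SE 0.59, adjusted p = 9.9e-06), Pcdhb6 (3.66, SE 1.01) and Pcdhb17 (3.56, SE 0.89) had the largest differences of all members. They rest on levels near the detection limit. Pcdhb22 was at 0 to 0.149 CPM in EB and 0.383 to 1.14 CPM in Neural. Pcdhb6 reached at most 0.0295 CPM in EB and was at 0.0579 to 0.631 CPM in Neural. Pcdhb17 reached at most 0.0496 CPM in EB and was at 0.0638 to 0.316 CPM in Neural. Whether the 2 stages differ from each other was not tested.

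**Figure D3:**
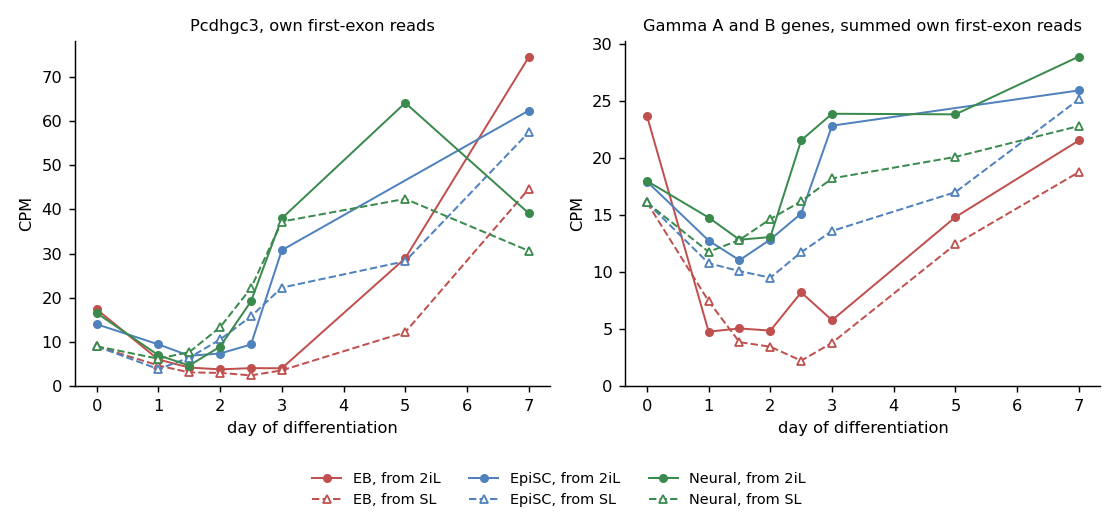
Own reads of Pcdhgc3 and summed own reads of the A-type and B-type gamma genes, in CPM against day, with 1 point per library. The lowest values of both are in EB over days 1 to 3 (Pcdhgc3 at 2.49 to 6.07 CPM, A-type and B-type genes at 2.25 to 8.24 CPM).

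At days 5 and 7, the shared gamma exons did not differ between the courses by a called amount, although own reads of single gamma genes did. The shared exons were at 59.1 and 97.7 CPM in EB from 2iL, at 28.1 and 66.7 CPM in EB from SL, at 85.4 and 68.9 CPM in Neural from 2iL and at 61.9 and 57.2 CPM in Neural from SL, in the order day 5, day 7. The courses overlapped (Neural over EB 0.30, SE 0.19, adjusted p = 0.19). EB was higher at day 7 than at day 5 in both media, and Neural was lower in both. On own reads, 3 of the 11 gamma genes tested were higher in Neural than in EB, Pcdhga12 was higher in EpiSC than in EB (1.03, SE 0.36, adjusted p = 0.041), and Pcdhga10 was higher (0.62, SE 0.25, adjusted p = 0.046) and 2 other genes were lower in Neural than in EpiSC. Over all genes in that count, 23.5%, 11.5% and 18% were higher in these comparisons, in that order, and 19.6% were lower in the last. Against day 0 of 2iL, the shared exons at days 5 and 7 differed by 0.63 (SE 0.32, adjusted p = 0.09), and against SL day 0 by 0.85 (SE 0.41, adjusted p = 0.10).

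Own reads of the gamma genes moved apart from each other over the week. Pcdhgc3 was at 74.4 and 44.6 CPM in EB at day 7 (from 2iL and from SL), at 62.3 and 57.4 CPM in EpiSC and at 39.1 and 30.6 CPM in Neural, each above all 3 libraries of 2iL ESCs. Days 5 and 7 were 1.61 above day 0 in 2iL (SE 0.51, adjusted p = 0.011). The difference in SL, 1.98 (SE 0.80, adjusted p = 0.056), did not pass. Pcdhgc4 was 2.18 higher in 2iL (SE 0.65, adjusted p = 0.0075) and Pcdhgc5 1.20 higher (SE 0.47, adjusted p = 0.036), so that all 3 C-type gamma genes rose in cells from 2iL. Of the 8 A-type and B-type genes tested, the B-type gene Pcdhgb6 rose too (1.44, SE 0.57, adjusted p = 0.035), the A-type gene Pcdhga12 fell by 1.11 (SE 0.39, adjusted p = 0.021), and the other 6 did not pass. In all, 4 of the 11 gamma genes tested on own reads were higher and 1 was lower. Over all genes in that count, 33.8% were higher and 30.9% lower, so the share of gamma genes that rose was near that of all genes. Summed A-type and B-type own reads were at 18.0 to 23.7 CPM in 2iL at day 0 and at 18.8 to 28.9 CPM at day 7. Pcdhgc3 accordingly made up 52.5 to 70.8% of own gamma reads at day 7. These reads are counted on 1 exon per gene and were not matched to splice junctions.

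Alpha rose from near zero, and its reads were split between the shared exons (1045 over all 45 libraries) and the genes' own exons (950). In cells from 2iL, the shared alpha exons rose from 0.149, 0 and 0.0467 CPM at day 0 to 0.485, 0.194 and 0.251 CPM at day 1.5 and 0.433, 0.180 and 0.541 CPM at day 2 (EB, EpiSC, Neural). All 6 later libraries were above the 3 of day 0. The log2 difference was 2.21 (SE 0.71, adjusted p = 0.018), and in the deposited counts this made all 14 alpha genes higher, 14 of 46 members tested against 24.7% of all genes. The highest of these values, in Pcdha12 (2.27), Pcdha2 (2.25) and Pcdhac1 (2.24), are close to that of the shared exons, since these genes had 3, 1 and 1 own counts over days 1 to 2, and their order says nothing of the isoforms. Counted apart, 2 alpha genes were tested on own reads and 0 were called. No other member was called in the deposited counts, and without the Neural course none of the 14 was. Counts behind these values are low, 6 over the 3 libraries of day 0.

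At days 5 and 7 the shared alpha exons were at 1.88 and 5.14 CPM in EB, 0.631 and 2.66 CPM in Neural and 2.22 CPM in EpiSC (day 7) in cells from 2iL, and at 0.966 to 3.02 CPM in the 6 libraries from SL (median 1.84). Pooled over the 5 libraries from 2iL this was 32.7 times the level at day 0 (367 counts against 6, counting interval 14.9 to 89.7), with a fitted log2 difference of 4.52 (SE 0.70, adjusted p = 3.8e-05). In SL it was 11.3 times (192 counts against 3, interval 3.80 to 55.1), with a fitted difference of 3.43 (SE 0.92, adjusted p = 0.0074). Here a lone library stands for SL at day 0, and it is assumed to vary like the later ones, which alone give the spread of that fit. Neither Neural nor EpiSC differed from EB in the shared alpha exons at this stage by a called amount.

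Of the 950 own reads of alpha, 528 fell on Pcdhac2 (ENSMUSG00000102697), the last alpha gene before the shared exons. Pcdhac2 was at 0.0892, 0 and 0.0467 CPM in 2iL at day 0 and listed at 0 in SL. At days 2.5 and 3 it was at 0.236 to 0.405 CPM in EB and 0.766 to 1.51 CPM in Neural, and Neural was 1.73 higher on the log2 scale (SE 0.57, adjusted p = 0.016), though not within 2iL alone. At days 5 and 7 the order was the opposite. EB was at 0.126 and 4.37 CPM from 2iL and at 0.272 and 1.29 CPM from SL (day 5, day 7), Neural at 0.172, 0.346, 0.334 and 0.221 CPM, and Neural was lower by 1.83 (SE 0.63, adjusted p = 0.018). The 2 day 5 libraries of EB lay within or below the range of Neural, so the difference came from EB at day 7. Without the EB library of day 7 from 2iL, a fit added after seeing the data, it was -0.64 and not called (SE 0.56, adjusted p = 0.37). Against day 0, Pcdhac2 was 3.01 higher in 2iL at days 5 and 7 (SE 1.09, adjusted p = 0.023). The same EB library held 164 of the 191 late own counts, and without it the difference was 2.02 (SE 0.82, adjusted p = 0.042). In SL 55 counts stood against 0, a pooled level at least 3.23-fold higher. Pcdha12, with 133 own reads the next alpha gene, was listed at 0 in all 3 libraries of 2iL at day 0 and stood at 0.111 to 0.635 CPM in the 11 libraries of days 5 and 7. Pcdhac1 was close to absent, at no more than 0.254 CPM of own reads in any library, and did not pass the filter for a test on own reads.

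The beta genes were nearly silent in ESCs, and their sums were highest at day 7. At day 0 the 22 genes together had 0.280 to 0.803 CPM in 2iL and 0.878 CPM in SL, and 0 or 1 of them reached 0.5 CPM. Sums stayed at 0.332 to 1.88 CPM over days 1 to 2 and passed 2 CPM by day 3 in EpiSC from 2iL (2.23) and in Neural from both media (3.76 from 2iL and 5.996 from SL). At day 7 they were 6.31 and 7.19 CPM in EB, 28.9 and 17.6 CPM in EpiSC, and 55.1 and 36.0 CPM in Neural (from 2iL, then from SL). All 6 libraries of day 7 were above every library of day 0.

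Of the 22 beta genes, 10 passed the filter on low counts in the 2iL fit and 15 in the SL fit, and a gene that passed only because it is high late had to differ, so the counts of calls describe the genes that passed and not the family. In 2iL, 24 of 46 members were higher at days 5 and 7 than at day 0, against 33.8% of all genes: 9 of 10 beta genes, the 14 alpha genes and Pcdhgc3. None was lower, against 30.9% of all genes (0 also at an unadjusted p under 0.05, and 0 with DESeq2). Counted apart it was 15 of 24, against 33.8%, with Pcdhga12 as the 1 lower. Without the EB course the count was 48, with all 21 gamma genes then called. In SL, 22 of 51 members were higher, against 20.9% of all genes: 8 of 15 beta genes and the 14 alpha genes. This comparison too sets the later libraries against the 1 SL library of day 0, and counted apart 10 of 29 were higher, against 20.8% of all genes. None was lower in the deposited counts, against 21.7% of all genes (0 at an unadjusted p under 0.05, and 0 with DESeq2). Without the EB course it was 45, again with all 21 gamma genes.

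Pcdhb22 (ENSMUSG00000073591) was the beta gene with the highest mean level. In cells from 2iL it was at 0.506, 0.333 and 0.187 CPM at day 0 and at 2.21, 6.96 and 8.14 CPM at day 7 in EB, EpiSC and Neural, and it was 9.54 times higher over days 5 and 7 than at day 0 (464 counts against 26, interval 6.43 to 14.8). The fitted log2 difference was 2.81 (SE 0.73, adjusted p = 0.0031) and was no longer called without the EpiSC course. Pcdhb16 (ENSMUSG00000047910) had 1 count over the 3 libraries of day 0 and 308 late, a ratio of 165 (interval 29.3 to 6525), with a fitted difference of 6.30 (SE 1.20, adjusted p = 0.00057). The 3 genes with the largest fitted rise had no count at day 0 in 2iL, and their pooled levels were at least 42.9-fold higher for Pcdhb19, 41.2-fold for Pcdhb17 (ENSMUSG00000046387) and 26.6-fold for Pcdhb18. In SL the largest rises were in Pcdhb19 (at least 7.22-fold), Pcdhb17 (at least 7.98-fold) and Pcdhb11 (at least 6.86-fold), all from no count in the single library of day 0. Pcdhb14 was the 1 beta gene tested in 2iL that did not pass (1.48, SE 0.83, adjusted p = 0.13).

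**Figure D4:**
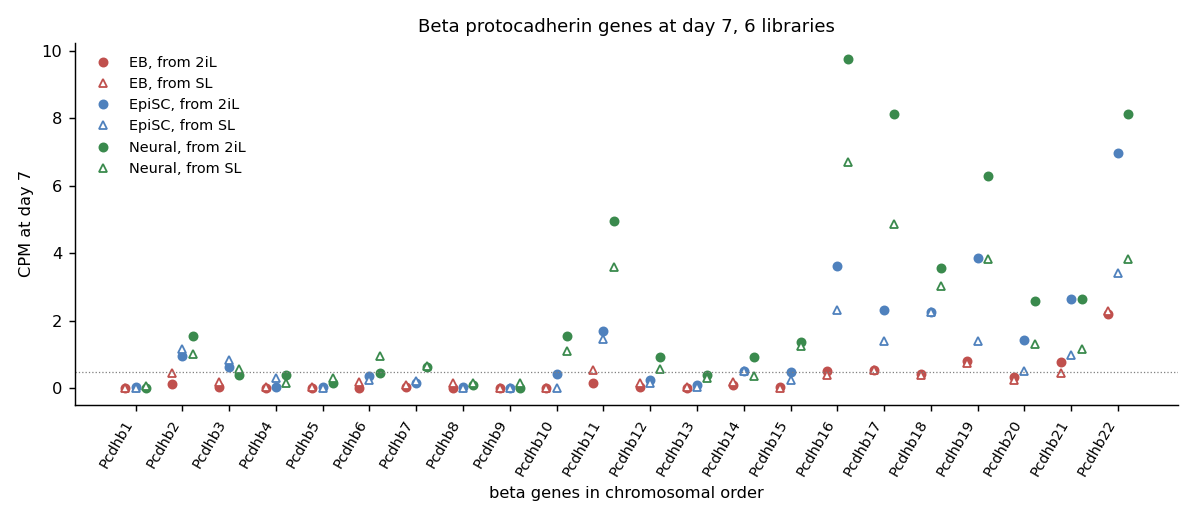
CPM of each of the 22 beta genes in the 6 libraries of day 7, in genome order from Pcdhb1 to Pcdhb22, with a dotted line at 0.5 CPM. Neural libraries lie highest, with 14 and 15 genes at 0.5 CPM or more, against 11 and 11 in EpiSC and 5 and 4 in EB (from 2iL, then from SL).

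At this stage the courses differed most clearly in beta. In the deposited counts at days 5 and 7, Neural exceeded EB for 15 of 51 members, against 23.4% of all genes, and the 15 are all of the beta genes tested. The other 7 of the 22 beta genes did not pass the filter on low counts, and a gene that passed only through the late Neural libraries had to differ, so this count describes the genes that passed. Over all 22 beta genes, whatever their counts, the sums were at 2.21, 6.31, 2.45 and 7.19 CPM in EB (2iL day 5, 2iL day 7, SL day 5, SL day 7) and at 15.0, 55.1, 16.4 and 36.0 CPM in Neural, without overlap. No member was lower with edgeR (1 at an unadjusted p under 0.05, 0 with DESeq2), against 24.5% of all genes, and 1 was without the EB library of day 7 from SL. Counted apart, 18 of 29 were higher, against 23.5%, the others being the A-type genes Pcdhga10 (1.17, SE 0.22, adjusted p = 7.9e-05), Pcdhga3 (0.90, SE 0.26) and Pcdhga9 (0.66, SE 0.22), and Pcdhac2 was lower.

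Pcdhb16 shows the pattern. It was at 0.126 and 0.506 CPM in EB from 2iL and at 0.327 and 0.397 CPM in EB from SL (day 5, day 7), and at 2.64, 9.76, 2.79 and 6.70 CPM in the corresponding Neural libraries. The lowest Neural library was above the highest EB library. Pooled, Neural was 16.4 times higher (356 counts against 38, interval 11.7 to 23.5), with a fitted difference of 4.07 (SE 0.43, adjusted p = 2.2e-08). Pcdhb17 was at 0.126, 0.532, 0.0544 and 0.545 CPM in EB and at 1.20, 8.14, 1.67 and 4.86 CPM in Neural, again without overlap, 12.2 times higher when pooled (258 counts against 37, interval 8.62 to 17.7; fitted 3.80, SE 0.45, adjusted p = 1e-07). The largest fitted differences were in Pcdhb10 (5.65, SE 1.15, 44 counts against 1), Pcdhb15 (5.16, SE 0.76, 46 counts against 2) and Pcdhb11 (4.21, SE 0.50, 179 counts against 19). Pcdhb22 differed least, at 1.005, 2.21, 0.435 and 2.28 CPM in EB and 3.90, 8.14, 3.57 and 3.83 CPM in Neural (1.93, SE 0.36, adjusted p = 6.5e-05). It was also the beta gene with the highest level per kilobase in EB at day 7 (0.34 CPM).

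**Figure D5:**
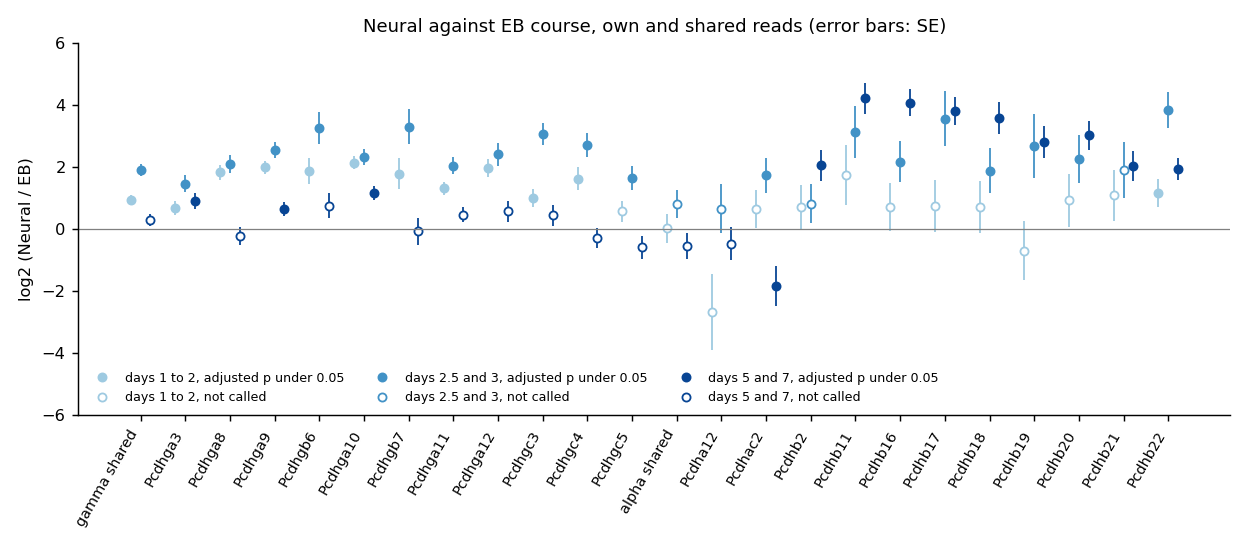
Log2 difference between Neural and EB, with its standard error, at days 1 to 2, days 2.5 and 3 and days 5 and 7. Drawn are the shared exons, the gamma and alpha genes tested on their own reads, and the beta genes Pcdhb2, Pcdhb11 and Pcdhb16 to Pcdhb22. Filled points mark an adjusted p under 0.05. The shared gamma exons are at 0.93, 1.90 and 0.30. The beta genes drawn are all called at days 5 and 7, as were the others of the 15 tested. Pcdhb10 and Pcdhb15, which differed most there, are not drawn.

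At day 7, the beta sums of EpiSC lay between those of Neural and EB. Pcdhb16 was at 3.64 CPM at day 7 from 2iL and at 0.483 and 2.31 CPM at days 5 and 7 from SL, and Pcdhb17 at 2.32, 0.0690 and 1.42 CPM. In the deposited counts EpiSC exceeded EB for 11 of 51 members, against 11.5% of all genes, and all 11 are beta genes, led by Pcdhb15 (3.12, SE 0.87, adjusted p = 0.020), Pcdhb16 (2.32, SE 0.46, adjusted p = 0.00065) and Pcdhb18 (2.30, SE 0.55, adjusted p = 0.0033). None was lower, against 10.4% of all genes (0 at an unadjusted p under 0.05, and 0 with DESeq2). This count leans on single libraries: it was 3 without the EpiSC library of day 7 from 2iL and 7 without the EB library of day 7 from 2iL, 3 with only the libraries of days 5 and 7 in the fit, 1 within 2iL and 0 within SL. Neural exceeded EpiSC for 7 of 51 members, all of them beta genes, a share not above the 18% of all genes called, with Pcdhb17 (2.25, SE 0.46, adjusted p = 0.00030), Pcdhb15 (2.04, SE 0.62) and Pcdhb11 (1.96, SE 0.48) at the top. The count was 4 without the Neural library of day 7 from 2iL, 4 with DESeq2, 3 with no filter on low counts and 0 within 2iL. None was lower, against 19.6% of all genes (0 at an unadjusted p under 0.05, and 0 with DESeq2), but counted apart Pcdhgc5 was lower by 1.14 (SE 0.39, adjusted p = 0.023) and Pcdhga8 by 0.84 (SE 0.30, adjusted p = 0.030). The 3 comparisons of courses share their libraries.

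Levels differed along the clusters. In Neural at day 7, the first 11 beta genes (Pcdhb1 to Pcdhb11) held 20.6% of beta counts (297 of 1443), and in EB 13.9% (53 of 382) and in EpiSC 18.7%. Per kilobase of exon, the highest in Neural at day 7 were Pcdhb16 (1.57 CPM), Pcdhb17 (1.39), Pcdhb11 (0.97), Pcdhb22 (0.91) and Pcdhb19 (0.71). Spearman's rank correlation of position with CPM per kilobase was 0.66 over the 22 genes in Neural, given as a description since the genes share libraries. The rank order of the beta genes at day 7 was alike between courses, with Spearman's correlations of 0.91 for EB with EpiSC, 0.81 for EB with Neural and 0.92 for EpiSC with Neural. In gamma, the first 10 genes (Pcdhga1 to Pcdhgb4) held 7.49% of own reads over all libraries, but 8 of these 10 are among the genes with no own read in any library, so that the share is that of Pcdhga3 and Pcdhgb4 and no order along the cluster is read from it.

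The 3 libraries of 2iL ESCs had higher gamma counts than the single library of SL ESCs. At day 0, 19 of 23 members tested were higher in 2iL than in SL, against 13.5% of all genes, all of them gamma genes, with Pcdhgc3 (0.67, SE 0.18), Pcdhga12 (0.63, SE 0.18) and Pcdhga3 (0.63, SE 0.17) at the top. None was lower, against 17.3% of all genes (0 at an unadjusted p under 0.05, and 0 with DESeq2). Counted apart, the shared gamma exons differed by 0.61 (SE 0.18, adjusted p = 0.031) and Pcdhgc3 by 0.89 (SE 0.25, adjusted p = 0.025), and no other own reads did by a called amount. Thus 1 of 13 members tested was called higher in that count, a share not above the 13.3% of all genes. The spread comes from the 3 libraries of 2iL and SL has 1 library: the count was 4 without the 2iL library of the EB course and 0 with the spread taken over all 45 libraries.

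Over days 1 to 2, the shared gamma exons were higher on average in cells from 2iL than in cells from SL, most of all in EB. The shared gamma exons were at 26.5 to 50.4 CPM in the 9 libraries from 2iL (median 35.5) and at 15.5 to 51.1 CPM in the 9 from SL (median 26.1). The groups overlapped. Means were 27.9 CPM from 2iL and 16.5 CPM from SL in EB, 38.2 and 30.0 CPM in EpiSC, and 40.8 and 38.3 CPM in Neural. Neural at day 2 was the other way round (50.4 from 2iL, 51.1 CPM from SL). With day and course in the model, the fitted average difference over the courses was 0.44 (SE 0.13, adjusted p = 0.0059, edgeR). In the deposited counts 22 of 51 members were higher, against 22.1% of all genes, namely the 21 gamma genes and Gm42416, and 7 were lower, against 21.5%. Counted apart, 2 of 29 were higher (Pcdhga10 and Gm42416), against 22.1% of all genes, and 4 were lower, against 21.5%, all of them beta genes, so that neither share of the members was above that over all genes. Gm42416 keeps its full count there, with the shared gamma exons it overlaps. Summed endoderm markers differed between the same groups, at 11.4 to 200.2 CPM from 2iL and 622 to 1595 CPM from SL, and their part in the result was not tested. With no replicate block, that is with course left out of the model, 0 were higher and 3 lower. The 7 lower in the deposited counts are the beta genes Pcdhb6 (-3.51, SE 0.90, adjusted p = 0.0032), Pcdhb18 (-2.12, SE 0.71), Pcdhb2 (-2.01, SE 0.62) and Pcdhb16 (-1.93, SE 0.69), and the alpha genes Pcdhac2, Pcdha11 and Pcdha10. Their number was 15 without EB, 3 without EpiSC and 1 without Neural. Beta sums at this stage were only 0.332 to 0.899 CPM from 2iL and 0.658 to 1.88 CPM from SL. At days 5 and 7 no member differed by origin with edgeR (22 of 51 at an unadjusted p under 0.05 as higher and 0 as lower, 0 and 0 with DESeq2), against 1.91% of all genes called higher and 2.51% called lower, and the shared gamma exons were at 0.45 (SE 0.16, adjusted p = 0.11).

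Other gene lists moved beside these genes. Over all genes, 23.4% were higher and 24.5% lower in Neural than in EB at days 5 and 7. Between Neural and EB at days 5 and 7, 5 of 6 neuron markers were higher and none lower (summed levels 95.8 to 561 CPM in Neural and 51.1 to 101 CPM in EB), as were 5 of 6 neural progenitor markers (271 to 604 against 96.9 to 256 CPM). Mesoderm markers were lower in 5 of 6 (12.6 to 14.7 CPM against 155 to 654 CPM, with Mesp1 under a mean of 0.5 CPM in Neural), and 4 of 6 endoderm markers were higher. The fitted gamma differences were largest over days 2.5 and 3. The neuron markers then summed to 88.0 to 131 CPM in Neural and 40.2 to 72.6 CPM in EB, with Dcx under a mean of 0.5 CPM in EB. At day 0 that sum was 108 to 159 CPM in 2iL and 160 CPM in SL. The Neural range thus overlapped that of 2iL ESCs and lay below the SL value. The neural progenitor markers summed to 135 to 374 CPM in Neural and 60.9 to 99.0 CPM in EB, against 30.0 to 35.4 CPM in 2iL and 11.4 CPM in SL at day 0. In EB, Hes5, Fabp7 and Zic1 were under a mean of 0.5 CPM. Over days 1 to 2, the means of those 3 markers were under 0.5 CPM in both courses. The part of these markers' cells in the protocadherin differences was not tested.

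Of the 20 genes that neighbour the clusters, few were higher in Neural than in EB at days 5 and 7, where beta was. Late in 2iL, where beta was higher too, the shares of neighbours called higher and lower were near those over all genes. Between Neural and EB, 1 neighbour was higher and 8 were lower (median -0.11), against 23.4% and 24.5% of all genes. Arap3 (-2.23, SE 0.25), a GTPase-activating protein, and Spry4 (-1.51, SE 0.30), a feedback inhibitor of FGF signalling, changed most. In 2iL at days 5 and 7 against day 0, 8 were higher and 6 lower (median 0.18), against 33.8% and 30.9% of all genes. Non-clustered protocadherins are single genes outside the 3 clusters. Their sum over the whole list was 13.3 to 21.8 CPM in 2iL at day 0 and 123 to 247 CPM at days 5 and 7 from 2iL. In 2iL at days 5 and 7, 9 of 10 tested were higher (median 7.56), against 33.8% of all genes. At day 0 in 2iL, 10 genes of the list were under a mean of 0.5 CPM. A gene that passed the filter on low counts only because it is high late had to differ, so this count describes the genes that passed. The largest rises were in Pcdh18 (10.50, SE 1.09) and Pcdh7 (9.57, SE 0.92). Between Neural and EB they were split, with 4 higher and 3 lower, against 23.4% and 24.5% of all genes. Pcdh17 was at 3.18 (SE 0.49) and Pcdh7 at -3.39 (SE 0.30).

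The 18 genes for factors known to act at the clusters cover CTCF, cohesin and its loaders and releasers, DNA methyltransferases and related factors. At days 1.5 and 2 in 2iL, 6 of them were higher and 3 lower, against 24.7% and 23% of all genes. The de novo DNA methyltransferase genes Dnmt3a (3.82, SE 0.31, adjusted p = 1.1e-07) and Dnmt3b (3.21, SE 0.53, adjusted p = 0.00012) changed most. At days 5 and 7, 5 were higher and 9 lower than at day 0 in 2iL, against 33.8% and 30.9% of all genes. Tet1, which oxidises methylated cytosine, fell by 2.39 (SE 0.19). Between Neural and EB at days 2.5 and 3, 1 was higher and 10 were lower, against 20.7% and 20.1% of all genes. Dnmt3b was at -2.06 (SE 0.34) and the neural repressor gene Rest at -1.12 (SE 0.12). At days 5 and 7, 12 of the 18 were lower in Neural, against 24.5% of all genes, and none was higher, against 23.4%. Dnmt3b was at -2.11 (SE 0.37) and Tet1 at -0.85 (SE 0.16). Whether any of these factors acts on the clusters here was not tested.

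Over the 45 libraries, the genes outside the clusters whose level was most like that of a cluster (Pearson's r of log2(CPM + 0.1), 13728 genes with a mean of at least 1 CPM) were Ednra (0.939), Robo2 (0.936), Gpc2 (0.935), Eid1 (0.934) and Ebf2 (0.933) for beta, Pknox2 (0.925), Zc3hav1l (0.910), Tspyl4 (0.909), H2afy2 (0.897) and Ncam1 (0.873) for gamma, and Setd7 (0.887), Tmem246 (0.884), Nsmf (0.878), Abhd8 (0.876) and Dlg4 (0.872) for alpha. Robo2 and Ncam1 code for neuronal guidance and adhesion receptors and Dlg4 for a postsynaptic scaffold. Robo2 was at 0.101 CPM in 2iL at day 0, 8.30 CPM in EB at day 7 and 39.8 CPM in Neural at day 7. Not all of the listed genes were highest in Neural. In the same order, Ncam1 was at 44.9, 32.4 and 56.9 CPM, Dlg4 at 0.482, 35.6 and 12.6 CPM, and Setd7 at 5.86, 141 and 75.5 CPM. The libraries of a course share their starting cells, so these are descriptions.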

How the data were processed

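Strand-specific, ribosome-depleted RNA-seq of 45 libraries was used. The authors trimmed reads with TrimGalore, mapped them to GRCm38 with TopHat2 (1 mismatch, Ensembl release 82 models) and deposited raw featureCounts counts per gene, without normalization. Tool versions and the treatment of reads on exons of several genes are not given in the sources used here. The 435 entries without a symbol held at most 0.0014% of counts.

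Members and gene lists were chosen with earlier results of these data known. CPM is the count over the library total. Groups came from sample titles. Comparisons used edgeR 4.0.16 (R 4.3.3) on all genes, with TMM factors, filterByExpr, the quasi-likelihood test and Benjamini-Hochberg adjustment (threshold 0.05), and the steps were tested on simulated data. In comparisons of days and of origin, courses served as replicate block, since titles pair libraries by course. Deviations from the day means correlated on average by 0.385 within a course (lowest -0.04, 260 pairs) and -0.19 between courses. In comparisons of courses, course is the term tested, and the media and days of a course stand in as replicates. As libraries of a course correlate, they are not independent, and the p-values of those comparisons can be too small. Courses are not repeat cultures. Reading shared exons once per cluster, fits within 1 medium, and the comparisons of Neural with EB before day 5 and of day 7 with day 5 were added after seeing the data. Folds from counts were pooled over libraries, with an exact 95% interval for counting error only, or a floor of 3 counts over the group where it had none.

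Named genes were the C-type members, the 3 highest members per cluster, the 3 largest called rises and falls per comparison, the 2 largest called changes per gene list and the 5 most similar genes per cluster. Members beyond this rule were chosen after their values were seen. Alternatives were DESeq2 1.42.0, RLE factors, no low-count filter, no replicate block, other sets of libraries, each replicate left out, TMM-scaled CPM and other detection limits. Python 3.11.15 made the tables and plots.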

Additional observations from a re-analysis of the deposited data

Results flagged for a closer look

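From day 5 to day 7, the change in own reads of Pcdhgc3 differed between EB and Neural. They went from 28.9 to 74.4 CPM and from 12.2 to 44.6 CPM in EB (from 2iL, from SL) and from 64.1 to 39.1 CPM and from 42.4 to 30.6 CPM in Neural. The log2 change in Neural minus that in EB was -2.17 (SE 0.28, adjusted p = 0.031, edgeR's quasi-likelihood test of the interaction over 8 libraries, where 1.07% of all genes were called lower and 0.956% higher). The comparison was added after the difference had been seen in these libraries, so its p is no independent evidence of it. It holds a change of 1.61 in EB (SE 0.20, adjusted p = 0.016) and of -0.56 in Neural (SE 0.20, adjusted p = 0.18). For the shared gamma exons, both EB courses were higher at day 7 and both Neural courses lower, with a mean difference of -1.20 on the log2(CPM + 0.1) scale, and the fitted interaction did not pass (-1.18, SE 0.26, adjusted p = 0.081). The cause of this difference was not tested.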

How the results depend on the processing

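Of the counts and levels recomputed under an alternative, 233 stayed within 1.5 times their value or 1 SD and 39 did not, and none of the values for single genes changed direction (834 kept their side of the threshold, 68 lost it and 11 gained it). Reading shared exons once gave, for members higher and lower, 0 and 3 at day 1 in 2iL, 0 and 7 at days 1.5 and 2, 15 and 1 at days 5 and 7, 10 higher at days 5 and 7 in SL, 1 higher in 2iL against SL at day 0, 2 and 4 by origin over days 1 to 2, 1 lower for Neural against EB and 2 lower for Neural against EpiSC at days 5 and 7, and 12 higher for Neural against EB over days 1 to 2. It removes features by construction, since each cluster's shared reads then count once over its genes. Gm42416, which overlaps the shared gamma exons, keeps its full count in it. DESeq2 called 1 lower at day 1 and 4 higher for Neural against EpiSC, where no filter left 3. The single SL library at day 0 limits that comparison, which kept 0 of its 19 with the spread over all 45 libraries. With no replicate block, the origin comparison over days 1 to 2 had 0 higher and 3 lower (22 and 7 with it), SL days 5 and 7 against day 0 had 16 higher (22 with it), and no other count moved by more than 1. Leaving out 1 replicate at a time gave 0 to 1 lower at day 1, 0 to 14 higher at days 1.5 and 2, 21 to 48 higher at days 5 and 7 in 2iL and 16 to 45 in SL, 4 to 21 higher in 2iL against SL at day 0, 19 to 22 higher and 1 to 15 lower by origin over days 1 to 2, 11 to 16 higher and 0 to 1 lower for Neural against EB at days 5 and 7, 26 to 32 higher at days 2.5 and 3, 4 to 8 higher for Neural against EpiSC and 3 to 11 higher for EpiSC against EB. Within 2iL alone, days 5 and 7 gave 1 lower for Neural against EB, 0 higher for Neural against EpiSC and 1 higher for EpiSC against EB, and within SL alone 8, 4 and 0 higher. With only the libraries of days 5 and 7, EpiSC against EB had 3 higher. Beta genes detected in EB at day 7 averaged 4.5 at 0.5 CPM, 7.5 at 0.25 CPM and 1 at 1 CPM. Where no cause is named, the cause was not tested.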

Other observations

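Gm42416, the read-through model that covers 446 of the shared gamma bases, followed gamma rather than alpha. It was at 12.97 to 15.1 CPM in 2iL at day 0 and 9.49 CPM in SL, at 3.76 to 6.05 CPM in EB and 15.2 to 20.5 CPM in Neural at days 2.5 and 3, and at 17.3 to 26.8 CPM at day 7. Neural exceeded EB by 1.91 on the log2 scale at days 2.5 and 3 (SE 0.19, adjusted p = 1.8e-08, edgeR). Its reads cannot be told apart from those of the shared gamma exons it overlaps, and no own level of it is given.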
